A study of Mus musculus with 23 samples.

Results

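The 10 genes described here were chosen by their names, as genes that carry or report negative feedback on transforming growth factor beta (TGF-beta) and bone morphogenetic protein (BMP) signaling. The choice was made with earlier results of these data known. The members are Smad6, Smad7, Id1, Id2, Id3, Id4, Skil, Ski, Smurf1 and Bambi. They are 10 of the 24917 loci in the table, and all 10 passed the filter on low counts in every fit. RNA was sequenced from colonic epithelium of male C57BL/6 mice (C57BL/6J in the study's methods), released from the whole colon with EDTA. The mice entered the diets at 6 weeks of age and stayed on them for 43 weeks. Control mice (LF) ate a diet with 10% fat throughout, and obese mice (HF) ate a diet with 60% fat throughout. Formerly obese mice (HFLF) ate the 60% fat diet for 15 weeks and then the 10% fat diet for 28 weeks. Batch 1 held 4 LF, 3 HF and 4 HFLF samples, and batch 2 held 4 LF, 3 HF and 5 HFLF samples. The labels do not say whether samples are separate animals, and the study's methods give fewer mice per regimen than there are samples here. The p-values therefore measure the spread between these samples, some of which may share a mouse. HF was compared with LF to ask what a lasting high-fat diet changed, and HFLF with both to ask whether the change was still there after the switch.

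As background, ligands of the TGF-beta and BMP families bind pairs of membrane receptor kinases, which phosphorylate receptor Smads that enter the nucleus with Smad4 and turn genes on or off. Among the first genes to respond are brakes on the pathway itself. Smad7 and Smad6 are inhibitory Smads that occupy receptors and compete with the receptor Smads, Smad7 for both branches and Smad6 mainly for BMP signaling. Smurf1 is a ubiquitin ligase that acts with the inhibitory Smads to remove receptors and Smads, and Bambi is a receptor-like membrane protein without a kinase. Ski and Skil (SnoN) are nuclear proteins that hold Smad complexes in a repressive state, and Skil is itself a rapid target of TGF-beta. Id1, Id2, Id3 and Id4 bind basic helix-loop-helix factors and keep them off DNA, and Id1 and Id3 in particular are classic BMP targets. In the colon, BMP signals are strongest toward the crypt surface, where they oppose proliferation and favor differentiation.

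Upstream windows from the RefSeq table (GRCm38.p6) were used for 6 members, namely Smad6, Id2, Id3, Id4, Ski and Smurf1. The 250 bases before the start of Id3, Smad6 and Ski are shown because these 3 genes were lower in HF samples when both batches were fitted, and because they differ in the letters that Smad proteins are known to bind. The letters searched, on both strands, were CAGAC (a core of the Smad binding element), GTCTAGAC (the palindromic form of the element, which does not contain the first motif), GGCGCC (a GC-rich Smad site) and TATAAA. Capitals mark each match and all other bases are in lower case. The Id3 window is chr4:136143572-136143821 on the plus strand. The Smad6 window is chr9:64022060-64022309 and the Ski window chr4:155222536-155222785, both on the minus strand and both written 5′ to 3′.
Id3: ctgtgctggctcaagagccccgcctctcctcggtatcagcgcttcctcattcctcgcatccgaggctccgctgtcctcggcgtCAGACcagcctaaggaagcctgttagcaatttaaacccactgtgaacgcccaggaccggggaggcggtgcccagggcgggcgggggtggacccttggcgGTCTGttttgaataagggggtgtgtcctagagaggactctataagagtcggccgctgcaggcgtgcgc
Smad6: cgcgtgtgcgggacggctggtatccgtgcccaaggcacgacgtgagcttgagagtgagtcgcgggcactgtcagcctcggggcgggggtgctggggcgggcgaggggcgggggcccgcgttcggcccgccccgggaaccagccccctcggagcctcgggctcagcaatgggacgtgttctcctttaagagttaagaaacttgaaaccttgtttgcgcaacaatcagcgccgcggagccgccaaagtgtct
Ski: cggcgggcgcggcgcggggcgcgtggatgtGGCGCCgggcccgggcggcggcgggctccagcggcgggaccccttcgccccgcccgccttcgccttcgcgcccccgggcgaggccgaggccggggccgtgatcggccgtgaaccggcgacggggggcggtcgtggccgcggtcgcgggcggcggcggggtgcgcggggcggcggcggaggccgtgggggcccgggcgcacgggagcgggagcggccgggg
The Id3 window held CAGAC 2 times, at -167 and -68 from the start, and Smurf1 held it 2 times, at -192 and -145. The windows of Ski and Id2 held GGCGCC once each, at -220 and -231. The Id4 window held it once, at -148 from the start that RefSeq gives, which lies upstream of the start of Id4 in the count table. The Smad6 window held none of the 4 motifs. GTCTAGAC and TATAAA were found in none of the 6 windows. Of 32851 upstream windows of the same length, 42.2% held CAGAC, 9.59% GGCGCC, 0.167% GTCTAGAC and 12.4% TATAAA. These matches are a description of letters. The share of G and C was 62.8% in the Id3 window, 66.8% in Smad6 and 87.6% in Ski, beside a median of 52.4% over all windows.

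Levels are given as CPM, the reads on a gene scaled to a common library size by TMM factors within a batch. Between genes they are compared as CPM per kilobase of exon. In LF samples of batch 1, Id1 had the highest level per kilobase, 211 CPM per kilobase ± 30.0 (SD, n = 4), and Id3 followed with 68.5 ± 10.1. Smad7 (27.6 ± 4.08), Skil (23.3 ± 1.14) and Ski (20.3 ± 2.79) came next. A lower step held Smad6 (10.0 ± 1.08), Smurf1 (9.32 ± 0.763) and Id2 (9.15 ± 1.09). Bambi (1.51 ± 0.101) and Id4 (0.791 ± 0.201) closed the order. The ranges of the samples overlapped between neighbors inside the step of Smad7, Skil and Ski and inside the step of Smad6, Smurf1 and Id2, and did not overlap between these steps. In LF samples of batch 2 the first 2 and last 2 places were the same, and Ski (19.9 ± 1.29), Smad7 (19.4 ± 0.600) and Skil (17.5 ± 0.856) again formed the middle step, although every Skil value there was below every Smad7 value. Id4, the least abundant member, had between 51 and 214 reads per sample.

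Samples held between 29189922 and 65320947 reads on genes. The epithelial identity was clear, with the summed level of 6 epithelial markers (Epcam, Cdh1, Vil1, Krt8, Krt18, Cdx2) between 9178 and 12186 CPM over all groups. The 6 fibroblast markers summed to 2.88 to 51.6 CPM, the 6 smooth muscle markers to 0.541 to 50.2 CPM and the 6 endothelial markers to 2.97 to 12.5 CPM. Within the endothelial list Cdh5 was at 0 in 4 samples and never above 0.249 CPM, whereas Pecam1 was at 1.53 to 9.60 CPM. Of 3 adipocyte markers, Adipoq was at 0 in 15 samples and Plin1 in 14, whereas Cidec was at 3.54 to 17.1 CPM. HF sample 3 of batch 1 stood apart, since it had the lowest level of its 11 samples for 7 of the 10 members. It also had the lowest sums of its batch for the endothelial (2.97 CPM), fibroblast (2.88 CPM) and smooth muscle (0.541 CPM) markers. For Smad6, Smad7, Id1, Id3 and Ski the values without it are given too, in HF vs LF and, over both batches, in HFLF vs HF. Other values include it unless stated. In bulk RNA, fewer cells of a type and less RNA per cell cannot be told apart.

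**Figure D1:**
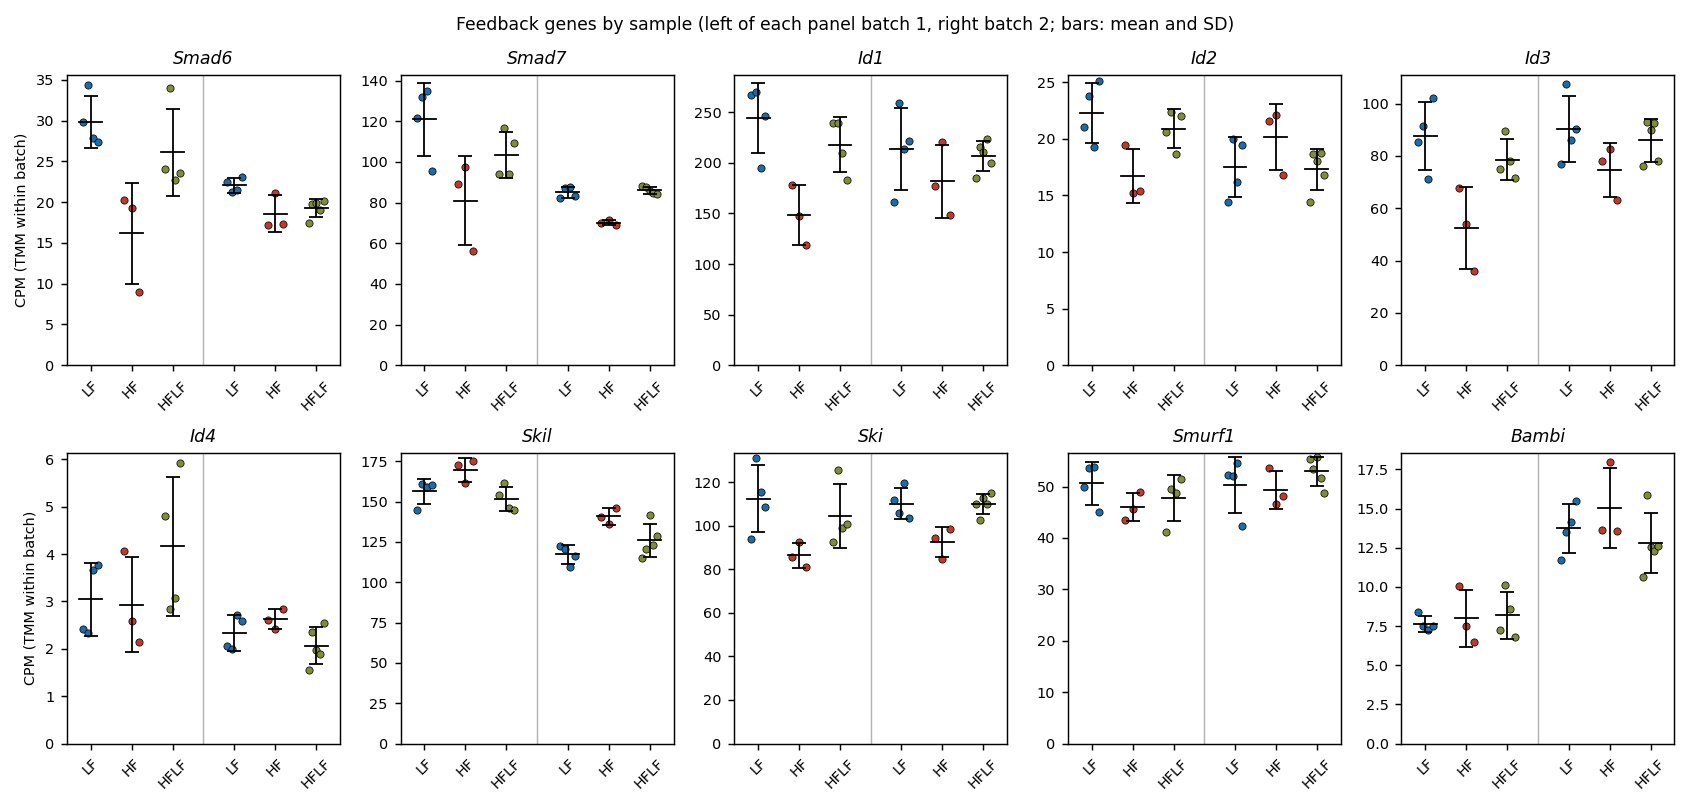
Level of each feedback gene in CPM (TMM within batch) in every sample, by diet, with batch 1 to the left and batch 2 to the right of the gray line in each panel, and lines for the mean and SD. Smad7 in batch 2 is an example without overlap, with HF samples between 68.9 and 71.5 CPM below LF samples between 82.4 and 87.7 CPM.

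Between HF and LF mice, Smad6, Smad7, Id1, Id3 and Ski were lower in HF samples when both batches were fitted together, with folds between 0.683 and 0.805. Skil had the opposite sign but a fold of 1.14, short of the threshold, and Id2, Id4, Smurf1 and Bambi did not pass the test either. A gene was called at an adjusted p under 0.05 (edgeR, quasi-likelihood F test with Benjamini-Hochberg adjustment) and a fold above 1.2. In the fit of both batches, 5 members were called, all lower, beside 18.1% of all genes called in either direction and 9.11% called lower. The median log2 fold change was -0.20 over the members and -0.01 over all genes tested. In batch 2 alone, 2 members were called, Smad7 lower and Skil higher, beside 7.44% of all genes. In batch 1 alone edgeR called 0 members and 0% of all genes, whereas 6 members had an unadjusted p under 0.05, beside 22.2% of all genes. On the same batch 1 samples DESeq2 called 4 members, beside 3.55% of all genes, and limma's voom with sample weights called 5, beside 16.8%, all of them lower. Without HF sample 2 of batch 1, edgeR called 4 members (Smad6, Smad7, Id1 and Id3), beside 9.25% of all genes, and without any other single sample it called 0.

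The inhibitory Smads were both called lower over both batches, and Smad6 had the largest change of the 5 called members. Smad6 in batch 1 was at 29.8, 34.4, 27.9 and 27.3 CPM in LF samples and at 20.2, 19.2 and 9.04 CPM in HF samples. The groups did not overlap, and HF sample 3 was far below the other HF samples. The log2 fold change was -0.89 (SE 0.23, adjusted p = 0.146), and without HF sample 3 it was -0.59 (adjusted p = 0.5258). In batch 2 the LF samples were at 22.5, 21.2, 21.5 and 23.1 CPM and the HF samples at 17.2, 21.17 and 17.3 CPM. HF sample 2 lay just under the lowest LF sample, and the log2 fold change was -0.25 (SE 0.08, adjusted p = 0.0627). Over both batches Smad6 fell by 0.55 on the log2 scale (SE 0.14, adjusted p = 0.0106), and by 0.37 without HF sample 3 of batch 1 (adjusted p = 0.0177). The study itself singled out Smad6 and Smad7 in aged obese mice, so their direction here is not independent evidence.

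Smad7, the inhibitor of both branches, was lower in HF samples as well. In batch 1 it was at 121.7, 132, 135 and 95.5 CPM in LF samples and at 89.0, 97.5 and 56.0 CPM in HF samples. The groups overlapped by 1 sample of each diet, and the log2 fold change was -0.58 (SE 0.17, adjusted p = 0.160), or -0.37 without HF sample 3 (adjusted p = 0.548). In batch 2 it was at 82.4, 87.0, 87.7 and 83.2 CPM in LF samples and at 69.8, 71.5 and 68.9 CPM in HF samples. Every HF sample was below every LF sample, and Smad7 fell by 0.28 on the log2 scale (SE 0.05, adjusted p = 0.0145). This call was lost when LF sample 3, HF sample 2 or HF sample 3 of batch 2 was left out, with adjusted p-values of 0.0524, 0.0964 and 0.0671. Over both batches Smad7 fell by 0.43 (SE 0.09, adjusted p = 0.00573), and by 0.31 without HF sample 3 of batch 1 (adjusted p = 0.0145).

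Id1 and Id3, classic BMP targets, were lower in HF samples of batch 1 and of both batches together. Id1 in batch 1 was at 267, 270.2, 195 and 246 CPM in LF samples and at 179, 147.6 and 119 CPM in HF samples. Id3 was at 85.4, 91.6, 71.3 and 102 CPM in LF samples and at 67.6, 53.9 and 36.1 CPM in HF samples. Neither gene overlapped between the diets in batch 1. The log2 fold change was -0.72 (SE 0.15, adjusted p = 0.137) for Id1 and -0.74 (SE 0.18, adjusted p = 0.139) for Id3. Without HF sample 3 these were -0.58 for Id1 and -0.52 for Id3 (adjusted p = 0.5258 for both). In batch 2 the diets overlapped for both genes. Id1 ranged from 161 to 259 CPM in LF and from 148 to 220.3 CPM in HF samples, with a log2 fold change of -0.23 (SE 0.14, adjusted p = 0.256). Id3 ranged from 77.1 to 108 CPM in LF and from 63.2 to 82.7 CPM in HF samples, with a log2 fold change of -0.28 (SE 0.11, adjusted p = 0.112). Both genes passed the test over both batches, where Id1 fell by 0.47 (SE 0.12, adjusted p = 0.00945) and Id3 by 0.50 (SE 0.12, adjusted p = 0.00747). Without HF sample 3 of batch 1 the falls were 0.37 for Id1 (adjusted p = 0.0347) and 0.37 for Id3 (adjusted p = 0.0212).

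Id2 and Id4 were not called between HF and LF in batch 1, batch 2 or both. Id2 was at 21.0, 23.8, 19.3 and 25.1 CPM in LF and 19.4, 15.3 and 15.4 CPM in HF samples of batch 1. In batch 2 it was at 14.4, 20.03, 16.2 and 19.5 CPM in LF and 21.6, 22.1 and 16.8 CPM in HF samples. The HF samples thus lay mostly below LF in batch 1 and mostly above LF in batch 2. The log2 fold change was -0.42 (SE 0.13, adjusted p = 0.160) in batch 1, 0.20 (SE 0.13, adjusted p = 0.289) in batch 2 and -0.09 (95% interval -0.33 to 0.14) over both. Id4 was at 1.99 to 3.77 CPM in LF and 2.14 to 4.06 CPM in HF samples over both batches. Its log2 fold change over both batches was 0.07 with a 95% interval of -0.35 to 0.48. Id4 is overlapped by 2 antisense or noncoding genes on the opposite strand (A330033J07Rik and Gm49291), and since the sources do not say whether strand was used in counting, its reads may include theirs.

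The nuclear corepressors Ski and Skil had log2 fold changes of opposite sign, and no single fit called both. Ski was called lower over both batches, and Skil was called higher in batch 2. Ski in batch 2 was at 112, 106, 119 and 104 CPM in LF samples and at 94.2, 84.8 and 98.5 CPM in HF samples. Skil in the same samples was at 122, 121, 109.6 and 116 CPM in LF and at 140.2, 136 and 146 CPM in HF. Neither gene overlapped between the diets, with Ski lower and Skil higher in every HF sample. Skil rose by 0.26 on the log2 scale (SE 0.07, adjusted p = 0.0382), with a fold just past the threshold. That call was lost when any of 8 of the 12 samples of batch 2 was left out, each LF and each HF sample and HFLF sample 5. Ski had a log2 fold change of -0.25 (SE 0.07, adjusted p = 0.0406) and a fold of 0.841, short of the threshold on fold. In batch 1 Ski was at 93.9, 131, 116 and 109 CPM in LF and 85.5, 92.6 and 80.9 CPM in HF samples, again without overlap. Skil in batch 1 was at 145, 161, 159 and 161 CPM in LF and 172, 161.3 and 175 CPM in HF samples, where HF sample 2 lay just above the highest LF sample. The batch 1 log2 fold changes were -0.38 for Ski (SE 0.13, adjusted p = 0.166) and 0.12 for Skil (SE 0.08, adjusted p = 0.370). Without HF sample 3 of batch 1 the Ski value was -0.33 (adjusted p = 0.548). Over both batches Ski fell by 0.31 (SE 0.07, adjusted p = 0.00557). This call was lost on the fold alone without LF sample 2 of batch 1 (log2 fold change -0.26, adjusted p = 0.0148). Without HF sample 3 of batch 1 the call held, at -0.27 (adjusted p = 0.0203). Skil had a log2 fold change of 0.19 over both batches (SE 0.05, adjusted p = 0.00993) and a fold of 1.14, below the threshold.

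Smurf1 and Bambi showed no difference past the test. Smurf1, the ubiquitin ligase, was at 42.3 to 54.7 CPM in LF and 43.4 to 53.6 CPM in HF samples of the batches. Its log2 fold change over both was -0.08, with a 95% interval of -0.21 to 0.05. Bambi, the pseudoreceptor, was at 8.40, 7.49, 7.24 and 7.48 CPM in LF and 10.0, 7.47 and 6.47 CPM in HF samples of batch 1. In batch 2 it was at 11.7, 13.5, 14.1 and 15.5 CPM in LF and 13.6, 17.97 and 13.5 CPM in HF samples. The diets overlapped in both batches, and the log2 fold change over both was 0.10, with a 95% interval of -0.13 to 0.33. Counted as groups that do not overlap, 5 members separated HF from LF in batch 1 (Smad6, Id1, Id3 and Ski lower, Skil higher), beside 13.6% of all genes. In batch 2, 4 members did so (Smad6, Smad7 and Ski lower, Skil higher), beside 27.3% of all genes.

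**Figure D2:**
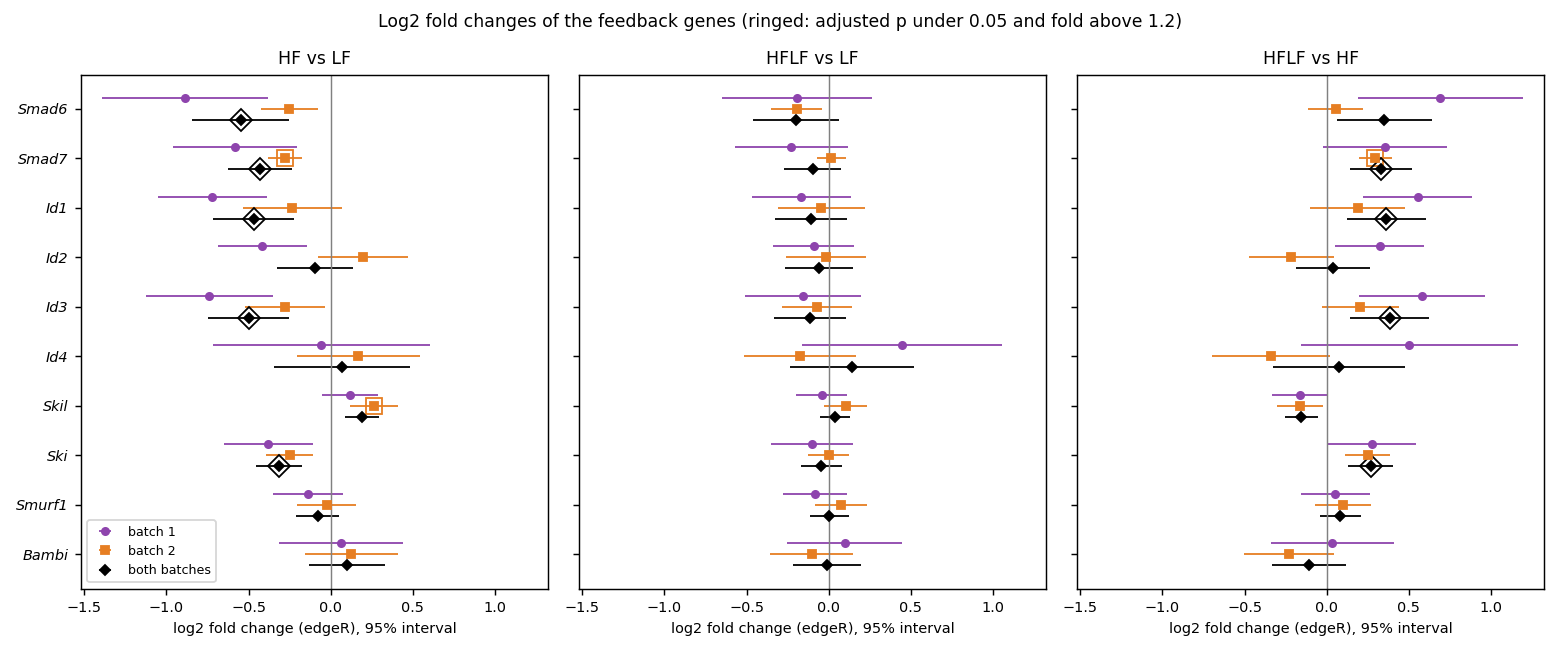
Log2 fold changes (edgeR) of the 10 members with 95% intervals for HF vs LF, HFLF vs LF and HFLF vs HF, in batch 1, batch 2 and both, with a ring where the adjusted p was under 0.05 and the fold above 1.2. In HF vs LF 5 members are ringed in the fit of both batches, and in HFLF vs LF none is.

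HFLF mice, 28 weeks after the switch, did not differ from LF mice past the test in any of the 10 genes. In the fit of both batches edgeR called 0 members and 0% of all genes between HFLF and LF samples, and 0 members had an unadjusted p under 0.05, beside 4.11% of all genes. DESeq2 also called 0 members in each of the 3 fits. The intervals bound the differences that these samples could still hide. For Smad6 the log2 fold change over both batches was -0.20 with a 95% interval of -0.46 to 0.07, and for Smad7 it was -0.10 with an interval of -0.27 to 0.08. For Id1 it was -0.11 (interval -0.33 to 0.11) and for Id3 -0.12 (interval -0.33 to 0.10). For Ski it was -0.05 (interval -0.17 to 0.08) and for Skil 0.04 (interval -0.06 to 0.13). The widest interval was that of Id4, 0.14 with bounds of -0.23 and 0.52. A fall of Smad6 in HFLF samples as large as the 0.25 measured in HF samples of batch 2 thus lies inside its interval. The same holds for Id1 and Id3 and the falls measured for them in HF samples of batch 2. In batch 1, edgeR called 0 members and 0% of all genes, 0 members had an unadjusted p under 0.05 (5.29% of all genes), and 0 members had groups without overlap (2.41% of all genes).

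Smad6 was the exception in batch 2. The HFLF samples were at 17.4, 19.8, 19.9, 19.0 and 20.1 CPM, all below the lowest LF sample at 21.2 CPM. It was the 1 member whose HFLF and LF groups did not overlap there, beside 1.29% of all genes, and the 1 member with an unadjusted p under 0.05, beside 4.65% of all genes. With adjustment over all genes the difference did not pass, with a log2 fold change of -0.20 (SE 0.07, adjusted p = 1.00). EdgeR called 0 members in that comparison, beside 0.00696% of all genes. Smad7, in contrast, was at 87.9, 87.8, 85.6, 84.7 and 84.2 CPM in HFLF samples of batch 2, inside or just above the LF range.

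Between HFLF and HF mice, Smad7, Id1, Id3 and Ski were higher in HFLF samples when both batches were fitted together. The 4 calls stand beside 10.3% of all genes called in either direction and 5.44% called higher. Smad7 was higher by 0.33 on the log2 scale (SE 0.09, adjusted p = 0.0228) and Ski by 0.27 (SE 0.07, adjusted p = 0.0163). Id1 was higher by 0.36 (SE 0.12, adjusted p = 0.0374) and Id3 by 0.38 (SE 0.12, adjusted p = 0.0319). Smad6 was at 0.35 (SE 0.14, adjusted p = 0.0806), and Skil had an adjusted p of 0.0342 at a log2 fold change of -0.16 (fold 0.898). These calls leaned on single samples, and 0 of the 4 held without HF sample 3 of batch 1. Without it the log2 fold change was 0.22 for Smad7 (adjusted p = 0.0606), 0.26 for Id1 (adjusted p = 0.127), 0.25 for Id3 (adjusted p = 0.0911) and 0.23 for Ski (adjusted p = 0.0554). Smad6, which had not passed, was at 0.18 without it (adjusted p = 0.192). Of the 23 samples left out in turn, 3 ended the call of Smad7, 4 that of Id3, 10 that of Id1 and 15 that of Ski. For Ski, most of these fits kept an adjusted p under 0.05 and fell short of the threshold on fold. Some of the samples were LF samples, which are not part of this comparison. An example is LF sample 1 of batch 2, without which the Ski value was 0.25 (adjusted p = 0.0229). Without HFLF sample 2 of batch 1, too, 0 members were called.

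Within batches the HFLF and HF samples separated for fewer members. In batch 2 Smad7 was the 1 member called, beside 14.5% of all genes, with a log2 fold change of 0.30 (SE 0.05, adjusted p = 0.00895). The lowest HFLF sample, at 84.2 CPM, lay above the highest HF sample, at 71.5 CPM, and the call was lost without HF sample 2 (adjusted p = 0.0638). Ski had groups without overlap as well, from 103 to 115 CPM in HFLF samples against 84.8 to 98.5 CPM in HF samples. Its log2 fold change of 0.25 (SE 0.06, adjusted p = 0.0229) corresponded to a fold of 1.19, under the threshold. These were the 2 members whose groups did not overlap, beside 27% of all genes. In batch 1 edgeR called 0 members and 0.00693% of all genes, DESeq2 and voom called 0 members, and 5 members had an unadjusted p under 0.05 (10.9% of all genes). Id1, Id3 and Smad6 were the 3 members with HFLF above HF in every sample there, beside 8.02% of all genes. HFLF samples of batch 1 were at 24.1, 34.0, 22.7 and 23.6 CPM for Smad6, at 239, 239.6, 209.8 and 183 CPM for Id1 and at 75.1, 89.6, 77.9 and 71.6 CPM for Id3. The comparisons HF vs LF and HFLF vs HF share their HF samples, and HFLF vs LF shares its samples with both.

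**Figure D3:**
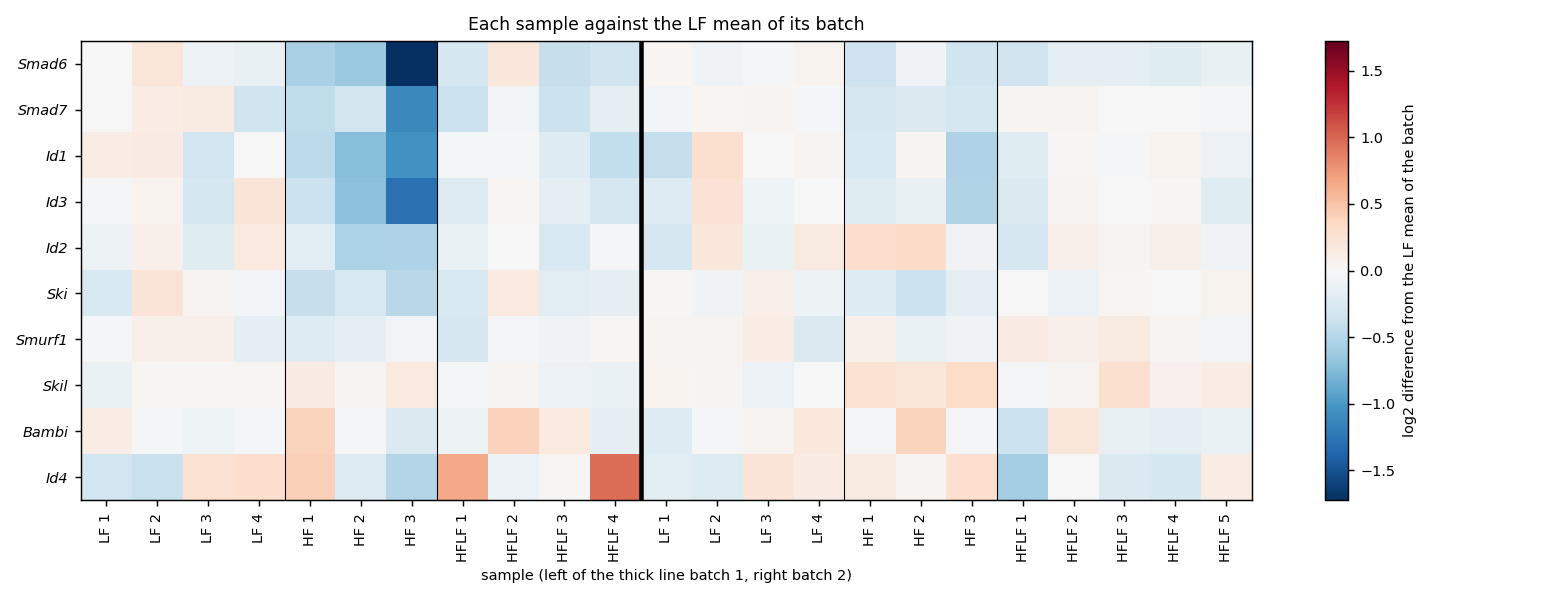
Log2 difference of each sample from the LF mean of its batch, for each member (rows) and sample (columns), with batch 1 left of the thick line. HF sample 3 of batch 1 has the deepest blue for Smad6, Smad7, Id1 and Id3, and HF samples of batch 2 are pale in the same rows.

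The log2 fold changes between HF and LF lay further below 0 in batch 1 than in batch 2 for Smad6, Smad7, Id1, Id3, Ski and Smurf1, and those of Id2 and Id4 differed in sign, but the difference between batches did not pass the test for any member. Tested as an interaction (batch 2 minus batch 1), it was 0.65 for Smad6 (SE 0.26, adjusted p = 0.724), 0.50 for Id1 (SE 0.22, adjusted p = 0.762), 0.63 for Id2 (SE 0.19, adjusted p = 0.686) and 0.48 for Id3 (SE 0.22, adjusted p = 0.767). EdgeR found 0 of 14725 genes past an adjusted p under 0.05. For Smad7 the difference was 0.32 (SE 0.18, adjusted p = 0.815) and for Ski 0.15 (SE 0.14, adjusted p = 0.921). Smad6, Id1, Id2 and Id3 were the 4 members with an unadjusted p under 0.05, beside 6.50% of all genes. For HFLF vs HF, 0 members passed, and 3 (Smad6, Id2 and Id4) had an unadjusted p under 0.05, beside 7.69% of all genes. The level in control mice differed between the batches for 5 members. In LF samples Bambi was higher in batch 2 by 0.81 on the log2 scale (SE 0.15, adjusted p = 0.000595). The change was -0.54 for Smad7 (SE 0.12, adjusted p = 0.00317), -0.45 for Skil (SE 0.06, adjusted p = 6.62e-05), -0.47 for Smad6 (SE 0.17, adjusted p = 0.0468) and -0.38 for Id2 (SE 0.12, adjusted p = 0.0307). Of all genes tested, 22.6% passed that test.

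The members did not vary as 1 block. Over the 23 samples, on log2 CPM centered on each batch, Id1 and Id3 were the most alike pair (Pearson r = 0.93). Smad6 stood near Smad7 (r = 0.86) and Id3 (r = 0.86), and Smad7 near Ski (r = 0.75) and Id3 (r = 0.72). Id2 was at r = 0.71 with Id3 and at r = 0.71 with Id1. Smad7 and Skil were the least alike (r = -0.52). Outside the members, the 3 genes most like Smad7 were Ap5z1 (r = 0.93), Slc20a1 (r = 0.92) and Usp20 (r = 0.92). Those most like Id1 were Hsbp1l1 (r = 0.82), Zfp36l2 (r = 0.80) and Tob1 (r = 0.80). The points of these correlations share diets, and HF sample 3 of batch 1 is among them.

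Some other lists differed between the diets as well. The 12 immediate early genes (Fos, Jun, Egr1 and others), which are induced within minutes and can shift with tissue handling, summed to 5854 to 6605 CPM in LF and 2540 to 4486 CPM in HF samples of batch 1. In batch 2 their sums were 6234 to 7486 CPM in LF and 4256 to 5805 CPM in HF samples. HF sums lay below every LF sum in both batches, and HF sample 3 of batch 1 had the lowest. In HF vs LF of batch 2, 8 of the 12 were called lower, and over both batches 10 were. HFLF sums were 4033 to 5739 CPM in batch 1, below every LF sum, and 6027 to 7303 CPM in batch 2, where 10 of the 12 were called higher than in HF. The 4 markers of dividing cells summed to 226 to 396 CPM in LF and 326 to 560 CPM in HF samples of batch 1, and to 417 to 494 CPM in LF and 422 to 509 CPM in HF samples of batch 2. EdgeR called 0 of the 4 within either batch and 3 higher in HF over both batches. The 3 stem markers summed to 60.2 to 73.9 CPM in LF and 76.5 to 81.4 CPM in HF samples of batch 2. In batch 1 these sums overlapped, and 1 marker (Smoc2, the one with the highest level of the 3) was called higher over both batches. The median log2 fold change of the 3 stem markers was -0.05 in batch 1, 0.35 in batch 2 and 0.09 over both. Of 6 goblet markers 2 (Tff3 and Agr2) were called higher over both batches, while the goblet sums of HF samples of batch 2 lay below every LF sum. Of 6 colonocyte markers 1 (Slc37a2) was called lower in HF samples of batch 2. Over both batches 0 were called, with a median log2 fold change of -0.02. Of the 3 enteroendocrine and 3 tuft markers 0 were called in HF vs LF.

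Markers of cells other than epithelium were low throughout, and some of their sums differed between the diets. Smooth muscle sums of batch 2 were 5.86 to 31.0 CPM in LF and 0.858 to 4.68 CPM in HF samples, without overlap, with a median log2 fold change of -2.40 over the 6 markers and 1 (Actg2) called lower. In batch 1 they were 1.16 to 11.2 CPM in LF and 0.541 to 10.1 CPM in HF samples. Fibroblast sums were 15.7 to 27.3 CPM in LF and 2.88 to 28.9 CPM in HF samples of batch 1, and 9.29 to 33.4 CPM in LF and 4.29 to 16.0 CPM in HF samples of batch 2. Of the fibroblast markers 1 (Pdgfra) was called lower in HF over both batches. Endothelial sums were 7.65 to 10.6 CPM in LF and 2.97 to 8.69 CPM in HF samples of batch 1, and 7.39 to 10.2 CPM in LF and 6.15 to 8.21 CPM in HF samples of batch 2, and edgeR called 0 endothelial markers. Leukocyte sums were 17.3 to 23.6 CPM in LF and 14.5 to 21.0 CPM in HF samples of batch 1. In batch 2 they were 10.4 to 13.9 CPM in LF and 10.6 to 14.3 CPM in HF samples. EdgeR called 0 leukocyte markers in HF vs LF and 1 (Cd3e) higher in HFLF vs HF of batch 2. In HFLF samples of batch 1 the sums were 2.51 to 50.2 CPM for smooth muscle, 12.5 to 51.6 CPM for fibroblast and 7.94 to 12.5 CPM for endothelial markers. In batch 2 they were 1.84 to 15.3 CPM, 7.07 to 23.1 CPM and 7.35 to 8.69 CPM. HFLF sample 2 had the highest smooth muscle and fibroblast sums of batch 1. The part of these lists in the values of the members was not tested.

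**Figure D4:**
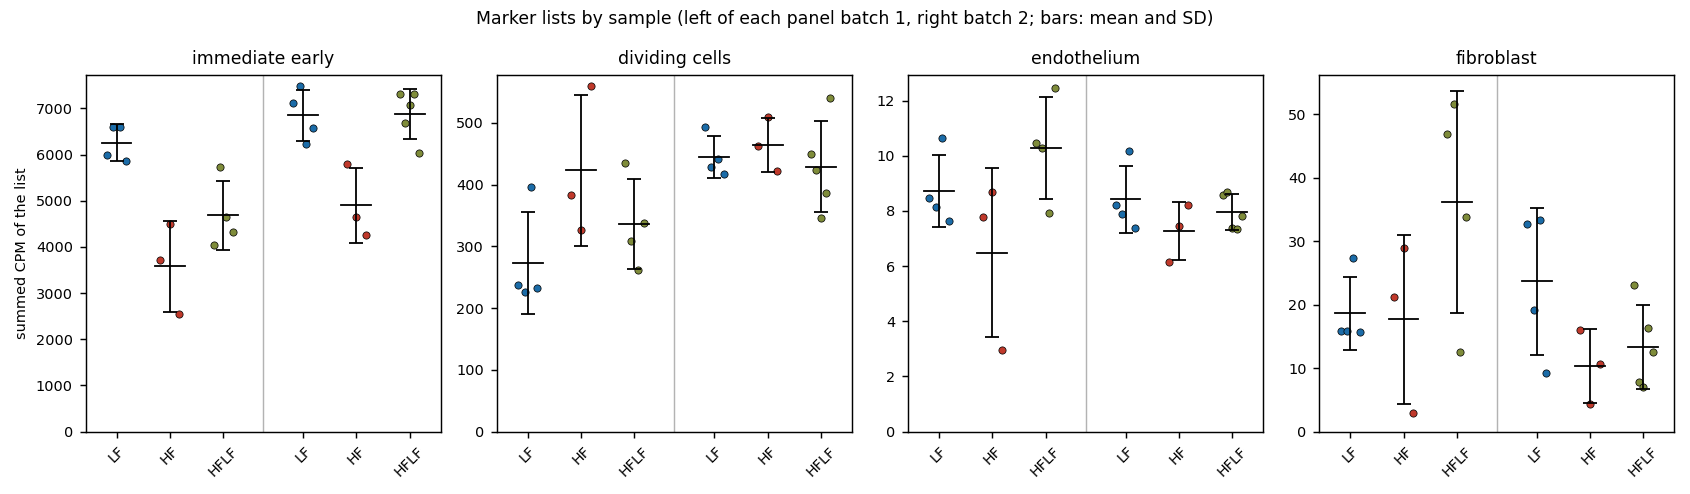
Summed CPM of the immediate early, dividing cell, endothelial and fibroblast lists in every sample, by diet, with batch 1 left and batch 2 right of the gray line and lines for the mean and SD. Immediate early sums of HF samples lie below those of all LF samples in each batch, from 2540 to 4486 CPM in batch 1.

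Between HF and LF, the other genes of the pathway were called about as often as all genes. Of 54 such genes, 40 to 42 were tested in each fit, and their median log2 fold change between HF and LF was -0.02 in batch 1, -0.06 in batch 2 and -0.03 over both. In HF vs LF of batch 2, 1 was called higher and 3 lower, 10% of those tested beside 7.44% of all genes. Over both batches 3 were called higher and 5 lower, 19.5% of those tested beside 18.1% of all genes. None was called between HFLF and LF samples by edgeR. In HFLF vs HF of batch 2, 7.5% of those tested were called, beside 14.5% of all genes. Over both batches it was 9.76%, beside 10.3% of all genes. The gene called higher in HF vs LF of batch 2 was Pmepa1, a membrane protein that binds receptor Smads and restrains TGF-beta signaling. It was at 8.02 to 10.1 CPM in LF and 11.6 to 16.8 CPM in HF samples (log2 fold change 0.59, SE 0.14, adjusted p = 0.0322), and at 7.81 to 10.8 CPM in HFLF samples. Its log2 fold change was 0.62 in batch 1 (SE 0.16, adjusted p = 0.146) and 0.60 over both batches (SE 0.10, adjusted p = 0.00172). Pmepa1 is thus a brake that rose in HF samples, while the brakes Smad6 and Smad7 fell over both batches.

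Among 13 ligands, 8 to 10 of which were tested, Gdf15 and Bmp3 were called lower in HF samples of batch 2. Gdf15, a stress-induced member of the family, fell by 1.06 (SE 0.20, adjusted p = 0.0189), from 5.47 to 9.63 CPM in LF to 2.89 to 4.27 CPM in HF samples. In HFLF samples of batch 2 it was at 3.99 to 5.55 CPM, and its difference from LF did not pass (log2 fold change -0.65, SE 0.17, adjusted p = 0.823). Bmp3, an atypical BMP that opposes other BMPs, fell by 0.27 in batch 2 (SE 0.06, adjusted p = 0.0313), whereas in batch 1 its log2 fold change was 0.19 (SE 0.17, adjusted p = 0.509). Of 12 receptors, 10 tested, Acvr2b, an activin receptor, fell by 0.63 in HF samples of batch 2 (SE 0.16, adjusted p = 0.0357) and was higher by 0.67 in HFLF than in HF (SE 0.15, adjusted p = 0.0157). Of the 6 signal-transducing Smads, Smad9, a BMP receptor Smad of low level here, was higher by 0.73 in HFLF than in HF samples of batch 2 (SE 0.23, adjusted p = 0.0406). Smad9 was at 1.84 to 2.45 CPM in LF, 1.04 to 1.82 CPM in HF and 1.78 to 3.28 CPM in HFLF samples.

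Of 7 secreted antagonists, 3 passed the filter on low counts. Twsg1, which binds BMPs outside the cell, was the 1 called over both batches, higher in HF by 0.27 (SE 0.06, adjusted p = 0.00506), and Chrd was at 0.19 (SE 0.22, adjusted p = 0.530). Of 8 other negative regulators, all tested, Pmepa1 was called higher over both batches and Spsb1, which targets the type II TGF-beta receptor, was called lower (log2 fold change -0.69, SE 0.20, adjusted p = 0.0170). The study named Spsb1 too. Of 8 other targets, 5 were tested and 0 were called by edgeR. Atoh8, a transcription factor among them, had a log2 fold change of -0.44 (SE 0.21, adjusted p = 0.120) over both batches. Bmp8b was called higher over both batches (log2 fold change 0.65, SE 0.22, adjusted p = 0.0330) and Acvrl1 lower (-0.27, SE 0.09, adjusted p = 0.0342), and these, like Spsb1 and Twsg1, were not called within a batch. Bmp8b, Acvrl1 and Spsb1 were named after their values were seen.

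By coordinates of the count table (mm10), Smad6 lies at chr9:63953076-64022059, Id1 at chr2:152736251-152737410, Id2 at chr12:25093799-25096092 and Id3 at chr4:136143822-136145392. Id4 lies at chr13:48261427-48264036, Skil at chr3:31095058-31122923, Ski at chr4:155154075-155222535 and Smurf1 at chr5:144876495-144965830. Smad7 lies at chr18:75367365-75395934 and Bambi at chr18:3507957-3516404. Besides Id4, Smurf1 was the 1 member with another annotated gene inside it (Mir7039, on the same strand).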

How the data were processed

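The authors deposited 1 table of raw counts, whole reads per gene locus for 23 samples, without normalization. Libraries were stranded and depleted of ribosomal RNA. Per the submitters' processing notes and methods, reads were trimmed with cutadapt 1.2.1, aligned to mm10 with STAR 2.5 and counted with featureCounts 1.5.0-p1, and the settings for strand and for reads on several genes are not given in the sources used here. Depth ran from 29189922 to 65320947 reads, so that 3 counts correspond to 0.0459 to 0.103 CPM, which covers counting error only.

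Counts were fitted in R 4.3.3 with edgeR 4.0.16 (TMM factors, filterByExpr, quasi-likelihood F test, Benjamini-Hochberg adjustment over all genes tested), with the 3 diets of a batch in one fit. Both batches were also fitted together with batch as a covariate. After the filter, 14428 genes were tested in the first batch, 14377 in the second and 14385 in the joint fit. Differences between batches were tested as an interaction. A standard error was taken as the absolute log2 fold change divided by the square root of F. Calls needed an adjusted p under 0.05 and a fold above 1.2. DESeq2 1.42.0, limma 3.58.1 (voom with sample weights), other scaling, no filter, blocks and leaving out each sample were alternatives. The edgeR fits within a batch were tested on simulated data. The planted changes were larger than those of the members called in HF vs LF over both batches, and smaller ones were not simulated.

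The members and lists were chosen with earlier results of these data known. Named were all members, pathway genes called within a batch or, for a list with none, the 2 with the smallest unadjusted p in HF vs LF of both batches, and the 3 genes most alike to Smad7 and Id1. Exon length was the union of exons in GENCODE vM21. The values of 1 gene that this rule names are not reported here.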

Additional observations from a re-analysis of the deposited data

Results flagged for a closer look

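Each group of 4 or 5 samples was searched for a highest or lowest sample far from the others (Dixon's ratio), over 10 members and 40 groups in all, of which chance alone marks about 1 in 20. In this search 2 groups of the 40 were marked, the number that chance alone would give. Skil in LF sample 1 of batch 1 was at 144.88 CPM, the lowest of 4, with the others between 159 and 161 CPM (ratio 0.915). Smad6 in HFLF sample 2 of batch 1 was at 34.039 CPM, the highest of 4, with the others between 22.7 and 24.1 CPM (ratio 0.874). The second lies at the level of the highest LF sample (34.4 CPM), and without it 0 members were called in HFLF vs HF over both batches. HFLF sample 2 of batch 1 also had the highest smooth muscle (50.2 CPM) and fibroblast (51.6 CPM) sums of its batch. Whether these bear on its Smad6 value was not tested.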

How the results depend on the processing

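Of the single-member log2 fold changes under all alternatives, 483 in batch 1, 506 in batch 2 and 780 over both batches kept their direction and side of the threshold, 12, 16 and 22 changed sign, 15, 5 and 1 gained a call and 0, 13 and 37 lost one. Leaving out samples in the fits of both batches was added after seeing the data. Where a value changed, the cause was not tested. Members called in HF vs LF of batch 1 (0) became 4 with DESeq2, 5 with voom, 2 (Smad6 and Id1) with a replicate block and 0 to 4 when samples were left out. In batch 2 (2 called) the replicate block ended the call of Skil (0.26) and gained Ski (-0.26), voom gave 4 and leaving out samples 0 to 2, and in HFLF vs HF 0 to 2. Over both batches HF vs LF kept 4 to 5 calls, and HFLF vs HF (4) gave 3 (without Ski) with DESeq2 and with RLE factors, 5 (with Smad6) with a random block, 2 without the filter and 0 to 4 without single samples. All genes called in HF vs LF of batch 1 (0) were 512 with DESeq2, 1 with RLE factors, 2 without the filter, 92 with the replicate block, 2422 with voom and 0 to 1352 without single samples. HFLF vs LF of batch 1 (0) gave 6 with DESeq2 and 0 to 6 without single samples. HFLF vs HF of batch 1 (1) gave 17 with DESeq2, 2 without the filter, 0 with the block, 0 with only the groups compared, 3 with voom and 0 to 3 without single samples. In batch 2, HF vs LF (1069) gave 1845 with DESeq2, 2080 with the block, 1991 with voom and 15 (without HF sample 2) to 2560. HFLF vs LF of batch 2 (1) gave 16 with DESeq2, 0 with the block, 0 with voom and 0 to 2, and HFLF vs HF (2084) gave 11 to 2778. Over both batches, HF vs LF (2605) gave 1591 to 3703 and HFLF vs HF (1488) 501 to 2669, while HFLF vs LF (0) gave 6 with DESeq2, 1 with the replicate block, 4 with a random block and 0 to 3 without single samples. Sign changes concerned log2 fold changes near 0. In batch 1, Id4 in HF vs LF was 0.064 with the replicate block, 0.35 with voom and -0.37 to 0.14 without single samples. Bambi was -0.14 to 0.20 in HF vs LF, -0.021 to 0.18 in HFLF vs LF and, in HFLF vs HF, -0.28 with voom and -0.11 to 0.24 without single samples. In HFLF vs LF of batch 2, Id2 was 0.000976 with the block and -0.10 to 0.052 without single samples, Smad7 -0.00162 with voom, Ski -0.029 to 0.041, Id1 -0.16 to 0.059, Id3 -0.14 to 0.023 and Smurf1 -3.44e-05 to 0.12. In HF vs LF of batch 2, Smurf1 was -0.10 to 0.026 and Bambi -0.00996 to 0.20. Over both batches, Id4 was -0.00298 to 0.20 in HF vs LF and, in HFLF vs HF, -0.041 with the replicate block and -0.061 to 0.14 without single samples. Id2 in HFLF vs HF was -0.047 to 0.10, and in HFLF vs LF Bambi was -0.071 to 0.026 and Smurf1 -0.040 to 0.035. Same-numbered samples of different diets had a correlation of deviations over 0.1 in 5 of 10 pairs of batch 1. In batch 2, 4 of 10 such pairs did. Among pairs with different numbers, 7 of 30 and 8 of 37 did, a smaller share in each batch. The numbers were still not taken to pair the 3 diets, because the labels do not say what a number marks. All 3 pairs of HF and HFLF in batch 1 were over 0.1 (at most 0.363), and there the replicate block left 0 members called. Across the batches, same-numbered samples of one diet had a median correlation of -0.09 in HF, -0.05 in HFLF and 0.10 in LF. The random block of diet and number had a consensus correlation of -0.10. These values do not settle whether samples share a mouse, since a mouse need not keep its number. Id4 had the fewest reads of the members, 51 to 214 per sample.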
